A study of Mus musculus with 9 samples.

Results

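MHC class I molecules display peptides from the inside of a cell to cytotoxic T cells and NK cells. The immunoproteasome cuts proteins into peptides, the TAP transporter carries them into the endoplasmic reticulum, ERAP1 trims them there, tapasin helps to load them, and the loaded heavy chain reaches the surface only with β2-microglobulin. NLRC5 is a transactivator of these genes, which interferon-γ induces in part through IRF1, and most nucleated cells, osteoblasts and endothelium included, carry class I. The genes examined here were 10 members of this pathway, listed by name for their known role, with earlier results of these data known. They were the heavy chains H2-K1 and H2-D1, the light chain B2m, the transporter subunits Tap1 and Tap2, the tapasin gene Tapbp, the immunoproteasome subunits Psmb8 and Psmb9, the aminopeptidase gene Erap1, and Nlrc5. All 10 were present among the 50686 genes of the count table, and all 10 passed the filter on low counts.

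RNA-Seq was carried out on 3 groups of 3 libraries. The control osteoblasts were MC3T3-E1 cells, a line derived from mouse calvaria, and the treated osteoblasts were MC3T3-E1 cells given 10 μM SB216763, an inhibitor of the GSK3 kinases, for 14 days. The third group was mouse pulmonary endothelial cells (ECs), which the study obtained by cell sorting (FACS) for comparison. The treatment protocol is worded identically for all samples, the culture time of the controls is not stated, and the strain and age of the mice that gave the ECs are not in the labels. MC3T3-E1 came from C57BL/6 mice and the authors aligned to GRCm38, a C57BL/6J genome. If the ECs carried another MHC haplotype, reads from their H2 genes could be lost or assigned to a neighbouring gene, and this cannot be told apart from a difference in level. Nothing states that the libraries of a group came from separate cultures or animals, so the p-values measure the spread between these libraries, which may be technical.

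The libraries held 30990107 to 68946333 counts, so that 3 counts, taken as the smallest level the depth can show, were 0.0473 to 0.104 CPM (counts scaled to a common library total, after TMM normalization). The endothelial markers Cdh5, Pecam1, Kdr, Tie1, Emcn, and Tek summed to 6080 to 6230 CPM in the ECs, 2.06 to 2.78 CPM in the controls, and 2.11 to 2.64 CPM in the treated osteoblasts. The osteoblast markers Sp7, Runx2, Col1a1, Alpl, Ibsp, and Bglap summed to 20100 to 28700 CPM in the controls, 2830 to 2970 CPM after treatment, and 28.9 to 38.3 CPM in the ECs. The treated osteoblasts thus had fewer osteoblast transcripts than the controls, and none of the 6 endothelial markers passed the test between these groups. Among all genes 32.9% were higher after treatment and 32.0% were lower. The 8 leukocyte markers summed to 25.8 to 27.7 CPM in the controls, 7.05 to 8.58 CPM after treatment, and 11.4 to 11.7 CPM in the ECs. Nearly all of this was Lyz2, a macrophage and granulocyte lysozyme, which was lower both after treatment and in the ECs than in the controls (log2 fold changes of -1.88 and -1.32). Of the 3 leukocyte markers tested, the other two, Laptm5 and Coro1a, were higher in the ECs than in the controls, with log2 fold changes of 2.73 and 1.26 (edgeR adjusted p = 1.73e-05 and 0.00344), at means of 0.465 and 0.541 CPM in the ECs, and did not pass after treatment. Cd3e was at 0 in all 9 libraries, and Ptprc, which defines leukocytes, was at 0.30 CPM or less. The 5 lung epithelial markers summed to 0.278 CPM or less, with Epcam at 0 in all libraries. The fibroblast and mural markers Pdgfra, Pdgfrb, Col3a1, Dcn, Rgs5, and Acta2 summed to 8340 to 9030 CPM in the controls, 1660 to 1730 CPM after treatment, and 45.8 to 49.2 CPM in the ECs. Most of the sum in the controls was Col3a1 and Acta2, and after treatment these and Dcn were lower (log2 fold changes of -3.29, -4.34, and -0.32), whereas the receptor genes Pdgfrb and Pdgfra were higher, from 253.5 to 745.9 CPM and from 33.3 to 67.0 CPM (log2 fold changes of 1.56 and 1.01, edgeR adjusted p = 5.08e-13 and 1.73e-11). In the ECs all 5 markers tested were lower than in the controls, 4 of them, all but Pdgfra, past a log2 fold change of 2 in size. Among all genes 37.9% were lower in the ECs, and 9.87% were lower past that fold. The part of these marker genes in the differences described below was not tested. In bulk RNA, fewer cells of a type and less RNA per cell cannot be told apart.

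The members lie on 4 chromosomes of the mouse genome (GRCm38, gene models of GENCODE M21). A group of 4 neighbours lies in the class II region of chromosome 17, which are Psmb9 (chr17:34181987-34187764, minus strand), Tap1 (chr17:34187553-34197225), Psmb8 (chr17:34197721-34201454), and Tap2 (chr17:34203527-34216321). Also on chromosome 17 are Tapbp (chr17:33915899-33929292), H2-K1 (chr17:33996017-34000347, minus strand), and H2-D1 (chr17:35262730-35267499). B2m is at chr2:122147686-122153083, Nlrc5 at chr8:94434356-94527272, and Erap1 at chr13:74639568-74693201. Several models overlap other genes, and the strand setting of the counting is not stated. All of B2m lies within Patl2 on the opposite strand, but Patl2 was at 0.255 CPM or less. Tapbp shares 3422 bases with Zbtb22 on its own strand, Erap1 shares 834 bases with Cast, and Psmb9 and Tap1 share 212 bases.

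RefSeq promoter windows (GRCm38.p6, 250 bases before to 50 after a start site) were at hand for 8 of the 10 members, all but Tap2 and Nlrc5. Class I promoters carry a cAMP-response-like element and an inverted CCAAT box, which belong to the module bound by the RFX, CREB/ATF, and NF-Y factors with which NLRC5 acts. The letters TGACG were found, on either strand, in 20.8% of all 32851 windows, and ATTGG in 37.4%. TGACG followed after exactly 20 bases by ATTGG was found in 31 windows (0.0944%), which included those of H2-K1, H2-D1, and B2m and that of the nonclassical class I gene H2-M3. The distance of 20 bases was chosen after these promoters had been read, so its rarity is a description. The other windows with the pair belonged to genes that are not members. The 4 stretches are shown because the promoters of H2-K1, H2-D1, B2m, and H2-M3 share the pair, with both motifs in capitals.
H2-K1: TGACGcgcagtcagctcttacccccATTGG
H2-D1: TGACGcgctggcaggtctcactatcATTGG
B2m: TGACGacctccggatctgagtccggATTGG
H2-M3: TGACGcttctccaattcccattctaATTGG
They lie at chr17:34000359-34000388 (minus strand, starting 41 bases upstream of the RefSeq start), chr17:35262993-35263022 (101 bases upstream, inside the longest first exon that GENCODE gives for H2-D1), chr2:122147609-122147638 (78 bases upstream), and chr17:37270188-37270217 (46 bases upstream). Of the 20 bases between the motifs, 13 are the same in H2-K1 and H2-D1, and 3 in H2-K1 and B2m. The Tap1 and Psmb9 start sites face away from each other with 225 bases between them, in which TGACG and ATTGG both occur, but not at that distance. The interferon-response-like letters GAAA, 2 bases, GAAA were found in 3.44% of windows and, among the members, in B2m, 139 bases upstream, and in Erap1, across the start site. The NF-κB-like letters GGG, 5 bases, CC, found in 50.8% of windows, were in those of H2-K1, H2-D1, B2m, Tap1, and Psmb9.

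Per length, B2m was the most abundant member in every group. Its mean RPKM (CPM per kilobase of exon) was 445 ± 24.8 in the controls, 1109 ± 69.9 in the treated osteoblasts, and 274 ± 6.20 in the ECs (SD, n = 3). H2-D1 came next, at 89.7 ± 3.69, 128.5 ± 5.70, and 134.6 ± 2.10 RPKM, and then Tapbp, at 37.2 ± 1.80, 75.9 ± 3.93, and 27.0 ± 0.171 RPKM. H2-K1 was the fourth, at 16.2 ± 0.797, 18.4 ± 0.391, and 7.58 ± 0.244 RPKM. Tap1, Tap2, Erap1, and Psmb8 followed between 3.54 and 7.76 RPKM in the controls, and Psmb9 was at 1.34 ± 0.176 RPKM. In the controls, Erap1 (3.89 ± 0.109 RPKM) and Psmb8 (3.54 ± 0.386 RPKM) did not differ beyond their spread, and after treatment the order of Tap1 (8.04 ± 0.365 RPKM) and Tap2 (12.9 ± 0.369 RPKM) was the opposite of that in the controls. In the ECs Psmb8 (0.673 ± 0.173 RPKM) and Psmb9 (0.561 ± 0.0596 RPKM) did not differ beyond their spread. Nlrc5 was the lowest member in all 3 groups, at 0.204 ± 0.0203, 0.171 ± 0.0195, and 0.0306 ± 0.0108 RPKM.

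The first comparison asked how the pathway differed in treated and control osteoblasts. After treatment 7 of the 10 members were higher, 0 were lower, and 3 did not pass at an adjusted p under 0.01 (quasi-likelihood test of edgeR, Benjamini-Hochberg over 15531 genes). No member was lower at an unadjusted p under 0.05 either, and DESeq2 and limma-voom each also called 7 higher and 0 lower. By the same rule 32.9% of all genes tested were higher and 32.0% were lower. The increases were largest for the light chain, Tap2, and tapasin, with folds of 2.49, 2.17, and 2.04, and none reached the stricter threshold of a 2-unit log2 fold change, also with DESeq2 and limma-voom or at an unadjusted p under 0.05. Past that threshold, 3.81% of all genes were higher and 5.84% lower. The median log2 fold change of the members was 0.57, and that of all genes tested was 0.014. When the libraries were scaled by their totals alone, the median of all genes moved to 0.22, the share of higher among all changed genes moved from 50.7% to 63.7%, and 9 of the 10 members were higher.

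The second comparison set the ECs against the control osteoblasts. Here 8 members were lower in the ECs and 2, H2-D1 and Erap1, were higher. Among all genes, 37.9% were lower and 39.0% were higher. Psmb8 and Nlrc5 were lower past the fold threshold, as were 9.87% of all genes, and 0 members were higher past it with any of the 3 tools, against 13.5% of all genes. The median log2 fold change was -0.87 for the members and 0.007 for all genes. Set against the treated osteoblasts, 9 members were lower in the ECs and 0 were higher (edgeR, and also DESeq2, limma-voom, and an unadjusted p under 0.05), where 38.3% and 40.3% of all genes were. B2m, Psmb8, and Nlrc5 passed the fold threshold as lower (10.3% of all genes, with 2 members in place of 3 by DESeq2) and 0 as higher (15.0% of all genes), and the median was -1.56 for the members and 0.02 for all genes. The comparisons share their libraries, so the values of each member are given side by side and the comparisons are not independent of each other.

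**Figure D1:**
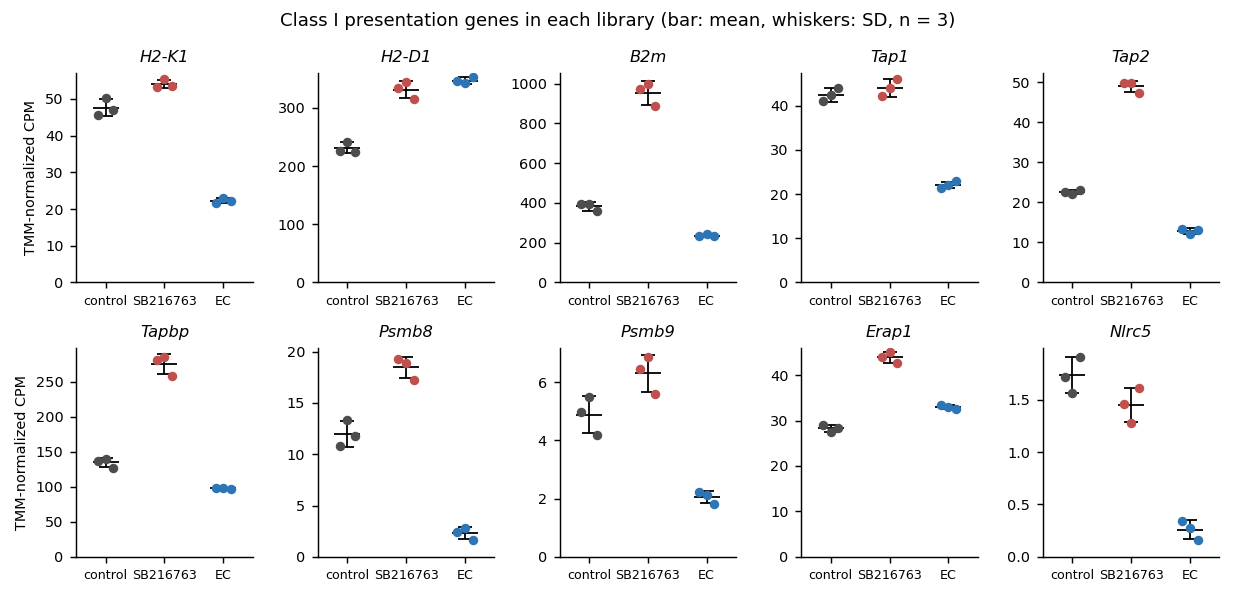
TMM-normalized CPM (vertical axes, from 0) of the 10 members in the control, SB216763, and EC libraries. Points are libraries, horizontal bars the mean, and whiskers the SD (n = 3). B2m, Tap2, and Tapbp stand highest after treatment and lowest in the ECs, whereas for H2-D1 the treated osteoblasts and the ECs overlap above the controls, and for Tap1 and Nlrc5 the treated and control libraries overlap.

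The classical heavy chains, which bind the peptide, differed in opposite directions between the ECs and the control osteoblasts. H2-K1 was at 45.6, 50.2, and 46.9 CPM in the control libraries, 53.1, 55.3, and 53.6 CPM in the treated libraries, and 21.5, 22.96, and 22.3 CPM in the ECs. The treated libraries lay just above the controls, and the ECs lay below both. The log2 fold change after treatment was 0.18 (SE, the standard error, 0.046, edgeR adjusted p = 0.00222), a difference that no longer passed without control replicate 1 (0.15), without control replicate 3 (0.16), or without SB216763 replicate 2 (0.16). In the ECs it was -1.10 (SE 0.049, edgeR adjusted p = 4.54e-12) against the controls and -1.28 (SE 0.049, edgeR adjusted p = 5.64e-13) against the treated cells.

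H2-D1 was at 226.5, 242, and 225 CPM in the controls, 334, 345, and 315.5 CPM after treatment, and 346, 342, and 353 CPM in the ECs. The treated and EC libraries overlapped each other and lay above all controls. H2-D1 had a log2 fold change of 0.52 after treatment (SE 0.048, edgeR adjusted p = 8.18e-08) and 0.58 in the ECs against the controls (SE 0.048, edgeR adjusted p = 1.27e-08). Between ECs and treated osteoblasts it was 0.067 (SE 0.048, edgeR adjusted p = 0.204), and -0.011 when the libraries were scaled by their totals alone, so its direction depended on the scaling.

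The ratio of H2-D1 to H2-K1 counts within a library needs no scaling between libraries. It was 4.96, 4.83, and 4.80 in the controls, 6.28, 6.23, and 5.88 after treatment, and 16.1, 14.9, and 15.8 in the ECs. The 3 groups did not overlap, and the ECs stood far above the others. The H2 genes are near-identical in long stretches, so reads can be shared or discarded among them, and the 17 class I heavy chain genes of the H2 region in the table were therefore also summed. The sum was 362 to 387 CPM in the controls, 514 to 562 CPM after treatment, and 436 to 449 CPM in the ECs. Again the 3 groups did not overlap, with the ECs between the controls and the treated osteoblasts. Of the counts in it, H2-D1 made up 61.8% to 62.7% in the controls, 61.4% to 62.0% after treatment, and 78.5% to 78.7% in the ECs, and H2-K1 made up 12.6% to 12.98%, 9.85% to 10.4%, and 4.90% to 5.27%.

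Of the 19 other class I heavy chain and class I-like genes on the list, 17 were in the table and 10 were tested. After treatment 5 were higher, 0 were lower (1 at an unadjusted p under 0.05, 0 by DESeq2 and limma-voom), and 5 did not pass. Among all genes 32.9% were higher and 32.0% lower. The median log2 fold change of the listed genes was 1.14, or 0.45 with the genes at or under 3 counts set to their bound, beside 0.014 for all genes. The 5 higher genes were H2-T23, Mr1, Cd1d1, H2-T22, and H2-M3. H2-T23, the mouse Qa-1 gene, whose product is read by NK cells, was at 8.96, 8.72, and 8.30 CPM in the controls, 30.0, 31.9, and 29.0 CPM after treatment, and 4.74, 4.42, and 4.33 CPM in the ECs. This was the same order of the groups as for B2m, with no overlap, and a log2 fold change of 1.80 after treatment (SE 0.062, edgeR adjusted p = 3.27e-13). Mr1, which presents microbial metabolites, went from 20.2 ± 0.414 to 66.7 ± 2.04 CPM, and Cd1d1, which presents lipids, from 2.57 ± 0.553 to 7.69 ± 0.759 CPM (SD, n = 3). H2-T22 and H2-M3 had log2 fold changes of 0.68 and 0.45 after treatment and of -1.05 and -1.47 in the ECs against the controls.

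In the ECs, 5 of the 10 tested were higher than in the controls and 4 were lower, beside 39.0% and 37.9% of all genes. Their median was 0.62 against 0.007 for all genes. The 3 past the fold threshold were H2-Q4, H2-Q7, and H2-T10, all nonclassical heavy chains. They passed the filter on low counts through the EC libraries alone, so a call of higher in the ECs was built into the filter. The count of 5 and the median of 0.62 include them and are descriptions. H2-Q4 was at 24.7, 23.5, and 24.1 CPM in the ECs and between 0.063 and 0.139 CPM in the controls, which was 4 counts in each library. H2-Q7 was at 3.73, 3.38, and 3.75 CPM in the ECs and at 0 counts in all 3 control libraries. H2-T10 was at 2.80, 2.04, and 2.43 CPM in the ECs and at 1 to 3 counts in the controls. These 3 genes were thus near or below the limit of detection in control osteoblasts. A difference in haplotype between the ECs and the osteoblast line cannot be told apart from these differences.

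**Figure D2:**
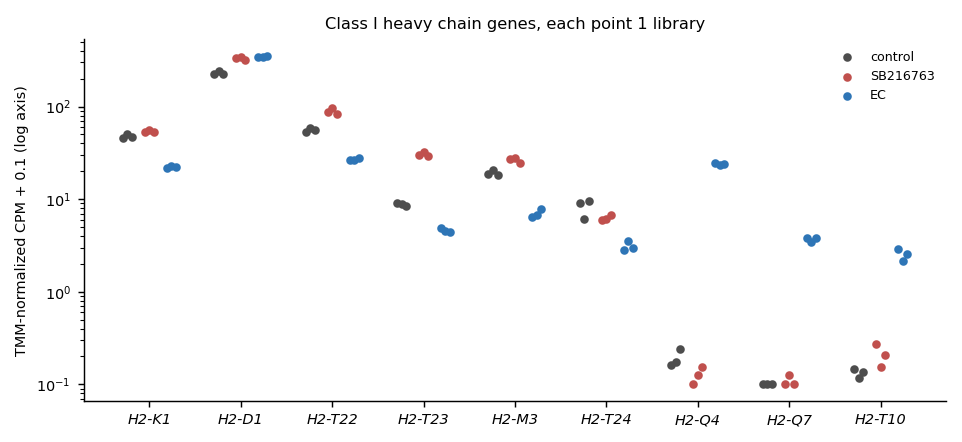
CPM plus 0.1 (vertical log axis) of 9 class I heavy chain genes. Each point is 1 library and colors mark the 3 groups. H2-Q4, H2-Q7, and H2-T10 are high in the 3 EC libraries only, whereas H2-K1, H2-T22, H2-T23, and H2-M3 are lowest there.

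The light chain had the largest increase among the members after treatment. B2m was at 397, 394, and 358 CPM in the controls, 975.5, 999.8, and 886 CPM after treatment, and 233, 242, and 232.5 CPM in the ECs. The treated libraries lay far above the controls, and all ECs lay below the controls. The log2 fold change after treatment was 1.32 (SE 0.058, edgeR adjusted p = 6.8e-12), a 2.49-fold difference. It was -0.70 in the ECs against the controls (SE 0.057, edgeR adjusted p = 1.14e-08) and -2.02 against the treated osteoblasts (SE 0.059, edgeR adjusted p = 1.54e-14). B2m fell just under the fold threshold in this last comparison with DESeq2 (-1.998), without SB216763 replicate 2 (-1.99), and without EC replicate 1 (-1.999). The increase of B2m after treatment was larger than those of H2-D1 and H2-K1, the heavy chains that its product accompanies, but this difference was not tested.

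Of the 2 subunits of the peptide transporter, Tap2 was higher after treatment and Tap1 did not pass, and the difference between them was not tested. Tap1 was at 41.0, 42.4, and 44.1 CPM in the controls, 42.1, 43.9, and 46.1 CPM after treatment, and 21.5, 22.02, and 22.9 CPM in the ECs. Treated and control libraries overlapped, and the ECs lay at 0.521 of the control and 0.502 of the treated level by the fitted fold. Tap2 was at 22.6, 22.2, and 22.96 CPM in the controls, 49.7, 49.8, and 47.3 CPM after treatment, and 13.4, 12.1, and 13.2 CPM in the ECs, with no overlap of any groups. After treatment the log2 fold change was 0.055 for Tap1 (SE 0.048, edgeR adjusted p = 0.321) and 1.12 for Tap2 (SE 0.050, edgeR adjusted p = 8.01e-12). Tap1 passed when the libraries were scaled by their totals alone, at 0.26. In the ECs against the controls the values were -0.94 for Tap1 (SE 0.050, edgeR adjusted p = 4.93e-11) and -0.80 for Tap2 (SE 0.054, edgeR adjusted p = 1.04e-09). Against the treated osteoblasts they were -0.99 (SE 0.051) and -1.92 (SE 0.053).

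Tapasin bridges the transporter and the empty heavy chain. Tapbp was at 137.5, 139.5, and 127 CPM in the controls, 282, 285, and 259 CPM after treatment, and 98.3, 98.2, and 97.2 CPM in the ECs. The groups did not overlap, with the treated libraries highest. Tapbp had a log2 fold change of 1.03 after treatment (SE 0.049, edgeR adjusted p = 2.17e-11), -0.46 in the ECs against the controls (SE 0.050, edgeR adjusted p = 3.2e-07), and -1.49 in the ECs against the treated cells (SE 0.050, edgeR adjusted p = 9.65e-14). Zbtb22, which shares part of its model with Tapbp on the same strand, was at 48.3 to 51.1 CPM in the controls, 72.7 to 76.1 CPM after treatment, and 34.5 to 36.5 CPM in the ECs, and its part in the difference was not tested.

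Of the 6 other genes for peptide loading and trafficking, 2 were higher after treatment, 3 were lower, and 1 did not pass, with a median of -0.22. Among all genes 32.9% were higher and 32.0% lower. The higher ones on the list were Tapbpl, the gene of the tapasin relative TAPBPR, and Bcap31, a receptor for export from the endoplasmic reticulum, with log2 fold changes of 0.82 and 0.55. The lower ones were the general chaperone genes Calr, Canx, and Hspa5, with log2 fold changes of -0.33, -0.29, and -0.45. In the ECs against the controls, 3 were higher, 0 were lower (1 at an unadjusted p under 0.05, 0 by DESeq2 and limma-voom), and 3 did not pass, with a median of 0.13. The 3 higher genes were Calr, Canx, and Hspa5, where 39.0% of all genes were higher and 37.9% lower.

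The immunoproteasome subunits replace constitutive subunits of the 20S core and yield more peptides that fit class I. Psmb8 was at 10.8, 13.4, and 11.7 CPM in the controls, 19.3, 18.9, and 17.3 CPM after treatment, and 2.38, 2.80, and 1.65 CPM in the ECs. All 3 groups were apart, with the ECs 5.34-fold lower than the controls. The log2 fold change was 0.62 after treatment (SE 0.10, edgeR adjusted p = 3.92e-05), -2.42 in the ECs against the controls (SE 0.13, edgeR adjusted p = 7.45e-11), and -3.04 in the ECs against the treated osteoblasts (SE 0.13, edgeR adjusted p = 2.29e-12). The last was the largest difference of any member in the 3 comparisons.

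Psmb9 was at 4.99, 5.48, and 4.20 CPM in the controls, 6.45, 6.86, and 5.61 CPM after treatment, and 2.22, 2.13, and 1.81 CPM in the ECs. The treated libraries all lay above the controls, but the lowest treated and the highest control library were close. After treatment the log2 fold change was 0.34 and missed the threshold by little (SE 0.11, edgeR adjusted p = 0.0107). It passed without control replicate 2 (0.42) and without SB216763 replicate 3 (0.42). In the ECs against the controls it was -1.28 (SE 0.13, edgeR adjusted p = 1.58e-07), and against the treated cells -1.62 (SE 0.13, edgeR adjusted p = 6.99e-09).

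The third immunoproteasome subunit gene, Psmb10, and the genes of the PA28 activator, Psme1 and Psme2, were listed beside the members. All 3 were higher after treatment, with log2 fold changes of 0.85, 0.43, and 0.34, and all 3 were lower in the ECs than in the controls, at -0.68, -0.48, and -0.87. Of the constitutive counterparts, Psmb5 did not pass after treatment (-0.008), and Psmb7 was lower (-0.51). Psmb6 missed the threshold by little (-0.16, edgeR adjusted p = 0.0108), and DESeq2 and limma-voom each called 2 of these 3 genes lower. All 3 were lower in the ECs than in the controls, with a median of -0.34. Of the 11 other genes of the 20S core, 0 were higher after treatment, 7 were lower, and 4 did not pass, with a median of -0.28, and in the ECs 5 were higher and 2 lower than in the controls, with a median of 0.12. Among all genes 32.9% were higher and 32.0% lower after treatment, and 39.0% and 37.9% in the ECs. None of the 3 constitutive and 11 other core genes was higher after treatment at an unadjusted p under 0.05, by DESeq2, or by limma-voom.

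Each immunoproteasome subunit was also set against the subunit it replaces, as a log2 ratio of counts (plus 0.5) in the same library. The differences after treatment were 0.64 for Psmb8 over Psmb5, 0.53 for Psmb9 over Psmb6, and 1.36 for Psmb10 over Psmb7. In the ECs against the controls they were -2.08, -0.78, and -0.36, and in the ECs against the treated osteoblasts -2.72, -1.31, and -1.72. The groups did not overlap in any of the 9 comparisons, and each gave p = 0.1 before and after adjustment over the 9, which is the smallest value that a 2-sided exact permutation test of 3 libraries against 3 can give. Per length, Psmb8 was 5.995% to 6.62% of the sum of Psmb8 and Psmb5 in the controls, 9.01% to 10.1% after treatment, and 1.14% to 2.05% in the ECs. For Psmb9 and Psmb6 the shares were 1.51% to 1.77%, 2.22% to 2.45%, and 0.818% to 1.06%. For Psmb10 and Psmb7 they were 33.2% to 35.4%, 55.7% to 58.4%, and 27.5% to 31.3%. By counts, however, Psmb10 was below Psmb7 in every treated library (log2 ratios of -0.675, -0.516, and -0.522). A share of Psmb10 above that of Psmb7 thus rested on the division by length, which joins all annotated exons of a gene. Psmb8 and Psmb9 were below their counterparts in all 3 groups by both measures, but the size of all these shares depends on the lengths used.

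**Figure D3:**
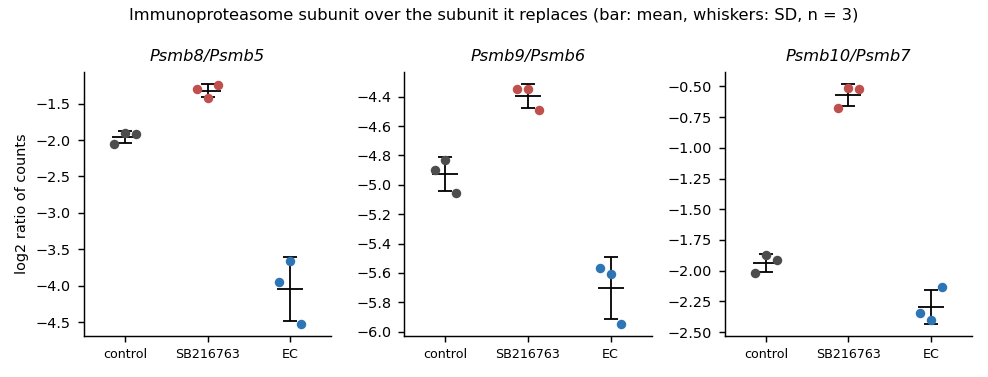
Log2 ratio of counts of each immunoproteasome subunit to the constitutive subunit it replaces (vertical axes, with a separate range in each panel), by group. Points are libraries, bars the mean, and whiskers the SD (n = 3). In each panel the treated libraries are highest and the EC libraries lowest, without overlap.

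ERAP1 trims peptides to the length that class I holds. Erap1 was at 29.1, 27.5, and 28.3 CPM in the controls, 44.1, 45.2, and 42.7 CPM after treatment, and 33.5, 33.1, and 32.6 CPM in the ECs. The groups did not overlap and, unlike most members, the ECs lay between the controls and the treated osteoblasts. For Erap1 the log2 fold change was 0.64 after treatment (SE 0.044, edgeR adjusted p = 2.29e-09), 0.22 in the ECs against the controls (SE 0.045, edgeR adjusted p = 0.000262), and -0.41 in the ECs against the treated cells (SE 0.044, edgeR adjusted p = 2.86e-07). Cast, which overlaps it on the opposite strand, was at 137 to 142 CPM in the controls, 104 to 106 CPM after treatment, and 134 to 138 CPM in the ECs. The part of Cast in the Erap1 differences was not tested. Of 8 cytosolic and other peptidase genes, 2 were higher after treatment, 4 were lower, and 2 did not pass, with a median of -0.30. The higher ones were Npepps and Lnpep, the latter an aminopeptidase of cross-presentation, with log2 fold changes of 0.37 and 0.97. In the ECs 3 were higher and 4 lower than in the controls, with a median of -0.023. Among all genes 32.9% were higher and 32.0% lower after treatment, and 39.0% and 37.9% in the ECs.

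Nlrc5, the transactivator, did not pass after treatment and was lower in the ECs than in either osteoblast group. Nlrc5 was at 1.72, 1.57, and 1.91 CPM in the controls, 1.46, 1.28, and 1.61 CPM after treatment, and 0.344, 0.274, and 0.162 CPM in the ECs. Treated and control libraries overlapped, and the ECs lay far below, on 7 to 15 counts per library. The log2 fold change was -0.24 after treatment (SE 0.18, edgeR adjusted p = 0.242), -2.71 in the ECs against the controls (SE 0.24, edgeR adjusted p = 3.6e-08), and -2.47 against the treated osteoblasts (SE 0.26, edgeR adjusted p = 1.9e-07). H2-D1, which was higher in the ECs than in the controls, thus differed in direction from Nlrc5 in that comparison.

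**Figure D4:**
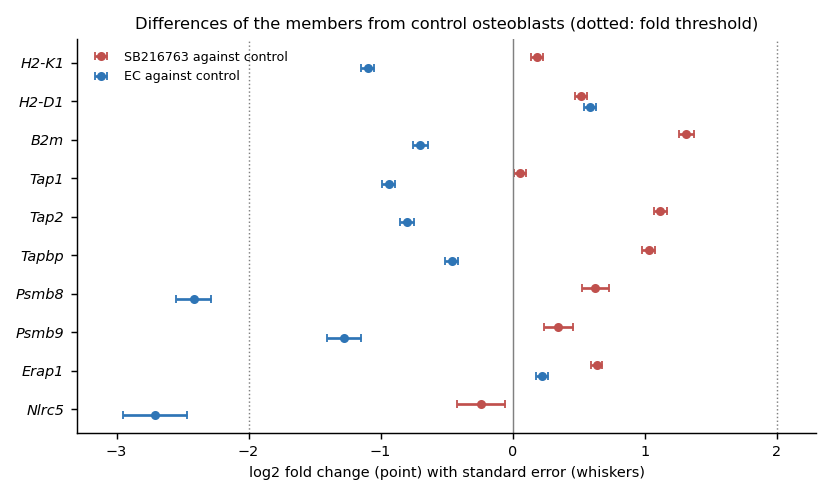
Log2 fold change (horizontal axis) of each member in SB216763-treated osteoblasts and in ECs, each against the control osteoblasts. Points are estimates, whiskers the standard error, and dotted lines the fold threshold at 2 in either direction. H2-D1 and Erap1 are above 0 in both comparisons, Psmb8 and Nlrc5 lie below -2 in the ECs, and no member reaches 2 after treatment.

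Factors that act on class I promoters were counted in the same way. Of 14 such genes, 5 were higher after treatment, 3 were lower, and 6 did not pass, with a median of 0.085. Besides Irf1, the higher ones were Irf9, Rfxank, Rfxap, and Nfya, with log2 fold changes of 0.74, 0.63, 0.21, and 0.18. The lower ones were Nfyc, Nfyb, and Atf1, with log2 fold changes of -0.53, -0.28, and -0.22. Among all genes 32.9% were higher and 32.0% lower. In the ECs 6 were higher and 4 lower than in the controls, with a median of 0.098, where 39.0% and 37.9% of all genes were. Irf1, an interferon-response factor of class I promoters, was at 33.5, 35.1, and 35.3 CPM in the controls, 121.7, 124, and 117 CPM after treatment, and 13.3, 14.5, and 15.0 CPM in the ECs. No groups overlapped, and the order was that of B2m, Tap2, and Tapbp, but a part of Irf1 in their differences was not tested. Irf1 had a log2 fold change of 1.80 after treatment (SE 0.049, edgeR adjusted p = 1.74e-14) and -1.28 in the ECs against the controls (SE 0.055, edgeR adjusted p = 2.49e-12).

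Of the 7 genes of the interferon-γ receptor pathway, Ifng was at 0 counts in all 9 libraries, and of the 6 tested 4 were higher after treatment, 1 was lower, and 1 did not pass, with a median of 0.43. Socs3 and Socs1, inhibitors of cytokine signaling, were among the higher. Socs3 was at 51.1, 56.7, and 51.0 CPM in the controls, 205, 211, and 196 CPM after treatment, and 16.1, 15.4, and 16.8 CPM in the ECs, again in the order of Irf1. In the ECs 2 of the 6 were higher and 3 lower than in the controls, with a median of -0.14. Among all genes 32.9% were higher and 32.0% lower after treatment, and 39.0% and 37.9% in the ECs.

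**Figure D5:**
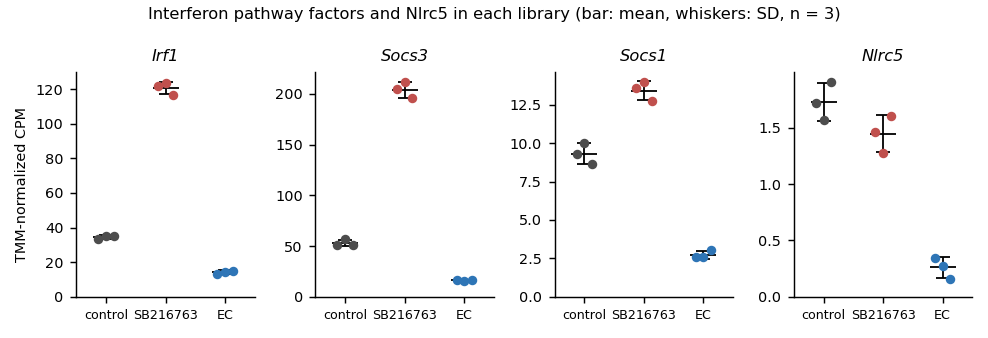
TMM-normalized CPM (vertical axes, from 0) of Irf1, Socs3, Socs1, and Nlrc5 by group. Points are libraries, bars the mean, and whiskers the SD (n = 3). Irf1, Socs3, and Socs1 are highest after treatment and lowest in the ECs, and Nlrc5 overlaps between treated and control osteoblasts.

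Class II presentation, which shares the MHC but serves CD4 T cells, was listed for contrast. Only 3 of its 9 genes passed the filter, and the class II chains H2-Aa, H2-Ab1, and H2-Eb1 were at 0.437 CPM or less in all libraries. H2-DMa, a peptide exchange factor, went from 3.76 ± 0.360 CPM in the controls to 7.73 ± 0.429 CPM after treatment, and Cd74, the invariant chain, from 4.43 ± 0.677 to 0.697 ± 0.104 CPM (SD, n = 3). H2-DMb1 was at 37.1 ± 1.73, 36.8 ± 2.03, and 0.303 ± 0.133 CPM in the controls, the treated osteoblasts, and the ECs. All 3 were lower in the ECs than in the controls past the fold threshold, as were 9.87% of all genes. Cd74 and H2-DMb1 were at 14 counts or less in each EC library. They passed the filter through the osteoblast libraries, which favored this direction for them.

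The genes whose log2 fold changes, after treatment and in the ECs, lay nearest to the medians of the members were Nsmf, Ttbk2, Tsc1, Stk40, and Repin1. Their distances were 0.0397 to 0.0519 on the log2 scale, among 10252 genes with at least 10 CPM in any group.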

How the data were processed

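The authors used STAR for alignment and gene counting of the RNA-Seq reads (version 2.5.3a on GRCm38, per the submitters' processing notes), and deposited raw counts, whole numbers without normalization, for 50686 Ensembl genes in 9 libraries. The annotation and strand setting are not given in the sources used here. Symbols and positions were looked up in GENCODE M21 for 50376 genes. In R 4.3.3, edgeR 4.0.16 was used with filterByExpr by group, TMM normalization, and a quasi-likelihood fit of all 9 libraries, and p-values were adjusted by Benjamini-Hochberg over the 15531 genes tested. Calls used an adjusted p under 0.01, alone or with a log2 fold change of 2 or more in size, the study's cutoffs. The prior count was 0.125, and standard errors were derived from the F statistic. RPKM divides CPM by the joined length of all annotated exons of a gene. Floors of 3 counts cover counting error only. No pair of replicates agreed within sampling noise. The fit was tested on simulated data.

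The members and lists were chosen with earlier results of these data known. All 10 members are named, with Irf1, Psmb5, Psmb6, Psmb7, and Psmb10, and the 5 genes most like the members. Genes of the lists past the fold threshold could be named, at most 4 a list, and not all genes of this rule are reported here. Marker genes beyond this rule and Mr1, Cd1d1, H2-T22, H2-M3, Tapbpl, Bcap31, Calr, Canx, Hspa5, Psme1, Psme2, Npepps, and Lnpep were named after their values were seen, as were genes that overlap members. The promoter factors Irf9, Rfxank, Rfxap, Nfya, Nfyc, Nfyb, and Atf1 were also named after their values were seen. Alternatives were DESeq2 1.42.0, limma-voom (limma 3.58.1), other scalings, filters, thresholds, and prior counts, 2-group fits, a replicate block, the summed heavy chains, and leaving out each library.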

Additional observations from a re-analysis of the deposited data

How the results depend on the processing

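Across the alternatives, 532 of 546 log2 fold changes and tests of single members kept their direction and their side of the threshold, 4 no longer passed, 7 newly passed, and 3 reversed. The sum of the class I heavy chains was counted among the alternatives for H2-K1 and H2-D1, although it is another quantity. H2-D1 made up 61.4% to 78.7% of its counts and H2-K1 4.90% to 12.98%. Between ECs and controls the sum gave 0.25, where H2-K1 gave -1.10 and, in its other alternatives, -1.13 to -0.97. For H2-D1 between ECs and SB216763-treated osteoblasts, 0.067 turned to -0.011 with scaling by library totals alone, and the sum gave -0.28. A reversal with the sum is thus not one of the gene alone. With a fold threshold of 1 on the log2 scale, 3 members were higher after treatment where 0 were at 2, 4 in place of 2 were lower in the ECs than in the controls, and 7 in place of 3 were lower in the ECs than in the treated osteoblasts. The share of all genes past this lower threshold was not computed, so these counts show only how the calls depend on it. H2-K1 after treatment did not pass in a fit of only these 2 groups (0.16). Psmb9 after treatment passed with library totals (0.55), upper-quartile scaling (0.36), and no filter (0.35). Same-numbered libraries had correlations of their deviations from -0.0392 to 0.123, with 1 of 9 pairs over 0.1. The highest was between control and SB216763 replicates 2, and with 3 libraries a group such values cannot exclude a pairing. With the replicate number as a block, 8 members were higher after treatment in place of 7, the addition being Psmb9 (0.36), and no other call changed. Depth limits Nlrc5 most, which rested on 7 to 15 counts in the EC libraries.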
